A study of Sus scrofa with 4 samples.

Results

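The genes described here code for the respiratory chain and the ATP synthase, the protein complexes of the inner mitochondrial membrane that turn the energy of nutrients into ATP. They were taken from the array's annotation as probe sets with exactly 1 gene symbol that begins with NDUF, UQCR, ATP5 or COX and a digit, or that is SDHA, SDHB, SDHC, SDHD, CYC1 or CYCS. This rule found 83 probe sets of 65 genes, out of 6765 genes with 1 symbol, and the probe set with the highest mean log2 signal stood for each gene. By function the 65 genes fell into 32 of complex I, 4 of complex II, 2 of complex III, 1 of cytochrome c, 8 of complex IV, 13 of complex V and 5 assembly factors.

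Complex I takes electrons from NADH and complex II takes them from succinate, and both pass them to ubiquinone. Complex III hands them on to cytochrome c, and complex IV gives them to oxygen. The flow of electrons drives protons across the membrane, and complex V, the ATP synthase, uses their return to make ATP. In liver, where much of the NADH comes from the oxidation of fatty acids, this chain works downstream of the carnitine-dependent entry of long-chain acyl groups into the mitochondrion.

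Livers came from 16 male crossbred piglets, (German Landrace x Large White) x Pietrain, aged 7 weeks at sampling. Of these, 8 ate a basal diet without added L-carnitine (control) and 8 ate that diet with 500 mg of L-carnitine in each kg (carnitine), for 21 days. Tissue was collected 2.5 h after feeding. Each array, a porcine Affymetrix GeneChip, measured a pool of RNA from 4 pigs, 2 pools for each diet, so that differences between single pigs are hidden.

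Values below are MAS5 signals, a background-corrected brightness of a probe set on a linear scale, and are given first for carnitine pools 1 and 2 and then for control pools 1 and 2. The 7 hepatocyte markers measured were all above the median signal of the arrays, which was 111, and their summed signals were 254162 and 229341 against 272633 and 248480. The 3' to 5' signal ratio, which depends on RNA integrity and on labelling, was 18.7 and 16.1 against 12.5 and 11.6 for GAPDH. It was 157 and 136 against 91.2 and 86.7 for actin, and 23.4 and 29.6 against 57.9 and 18.2 for EF1A. The first 2 ratios were higher on both carnitine arrays, and their part in the results on the respiratory chain was not tested. Summed signals of 4 stellate cell and fibroblast genes were 1277 and 1109.7 against 982 and 2751, and those of 5 endothelial genes were 2650.0 and 1552 against 1681 and 3572, and both sums were highest in control pool 2. Of their members DCN, LUM, PECAM1, VWF and TEK were highest there, COL1A2 and KDR in control pool 1, CDH5 in carnitine pool 1 and COL3A1 in carnitine pool 2. Of 2 red blood cell genes the sums were 668 and 539 against 922 and 1219, lower in both carnitine pools through ALAS2 (358 and 239.6 against 644 and 917), while HBB overlapped between the diets (309.7 and 299 against 278 and 301). Those of 5 T and NK cell genes were 689 and 538 against 922 and 677, and those of 3 macrophage genes 712 and 744 against 718 and 630. Of the T and NK cell genes, CD8A was lower in both carnitine pools (284 and 222 against 604 and 299). CD3G was higher in both (55.4 and 60.3 against 47.3 and 43.6), and CD2, CD3D and CD3E overlapped. Of the macrophage genes, CD14 was higher in both carnitine pools (356 and 409 against 216 and 328), while CD163 and MARCO overlapped. Whether these cells had a part in the results was not tested. In pooled tissue, fewer cells of a type and less RNA per cell cannot be told apart.

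No transcript of the respiratory chain or the ATP synthase differed between the diets beyond the adjusted threshold, and both directions occurred in complexes I, II, IV and V. No gene of the 65 passed an adjusted p of 0.05 in limma, a test fitted over all probe sets, and the smallest adjusted p was 0.452. At that threshold 0.00418% of all probe sets were called, and 0.0167% of those above the 75th percentile of signal. At an unadjusted p under 0.05, 3 genes had a higher signal in the carnitine pools, CYCS, ATP5J and NDUFB3, and 4 a lower one, NDUFA11, NDUFC2, NDUFB11 and ATP5G2. Those counts are 4.62% and 6.15% of the members, beside 4.73% and 3.94% of all probe sets. Among the brighter probe sets, where 61 of the 65 genes lay, the shares were 8.14% and 6.18%. Beside these, the share of lower genes was near the background and that of higher genes was below it. The counts are 3 and 4 genes, and a difference from either background was not tested.

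Measured differences were below 2-fold in all genes but COX8H. The median log2 fold change over the 65 genes was -0.061, against -0.018 over all probe sets, and the median size without regard to sign was 0.18, against 0.24 over probe sets above the 75th percentile of signal. A log2 fold change of 1 or more, a 2-fold difference, occurred in 1 gene, COX8H, while 15.9% of all probe sets and 3.11% of those above the 75th percentile reached that size. For 53 genes the 95% interval of the difference lay within 2-fold in both directions, and for 12 it reached past that size. The median standard error (SE) was 0.21.

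More genes had a lower than a higher mean signal in the carnitine pools. Of the members 58.5% lay below 0, against 51.4% of all probe sets and 51.0% of those above the 75th percentile of signal. The members split into 38 below and 27 above 0. That split was 39 and 26 after quantile normalization and 34 and 31 after centring on the median. Both carnitine pools lay below both control pools for 16 genes, 24.6% of the members, beside 20.4% of all probe sets. Both lay above both control pools for 5 genes, 7.69% of the members, beside 19.2% of all probe sets. In probe sets above the 75th percentile of signal these shares were 23.7% lower and 23.5% higher. The pools of the diets overlapped for the other 44 genes. The split turned without carnitine pool 1, with 34 genes above and 31 below 0, and was 20 above and 45 below without carnitine pool 2.

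**Figure D1:**
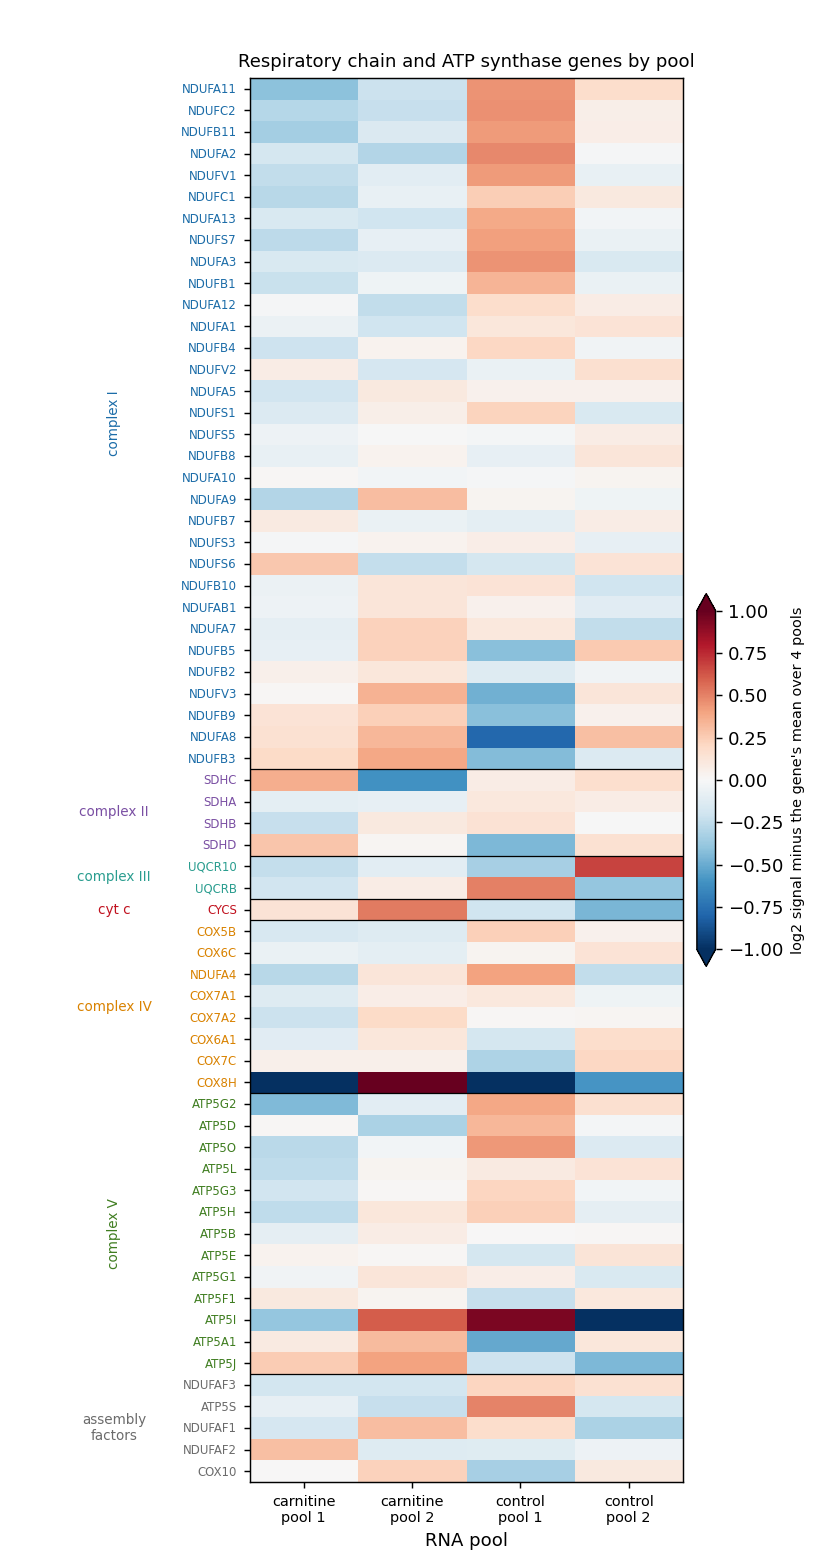
Log2 signal of each of the 65 genes in the 4 RNA pools after subtraction of the gene's mean over the pools, with genes in rows grouped by complex, pools in columns, red above and blue below that mean, and colours saturating at 1. In complex I the pools lie furthest from the mean in control pool 1 for genes such as NDUFA8, NDUFA2 and NDUFA3, and across all genes COX8H and ATP5I vary most.

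Complex I, the NADH dehydrogenase, was represented by 5 core subunits, which carry the flavin and the iron-sulfur clusters, and by 27 accessory subunits, which surround the core and stabilise it. Further subunits were not analysed here. Of the 32 genes, 19 had a log2 fold change below 0 (59.4%, against 51.4% of all probe sets) and 13 above 0. The median of the 32 was -0.063, with a range from -0.62 to 0.58. The diets did not overlap for 10 genes that were lower in the carnitine pools (31.2%, against 20.4% of all probe sets and 23.7% of those above the 75th percentile of signal) and 3 that were higher (9.38%, against 19.2% and 23.5%).

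Among the core subunits, NDUFV1, which binds NADH and the flavin, had signals of 1489 and 1642 with carnitine against 2380.1 and 1675 in the controls. NDUFS7, which holds the last iron-sulfur cluster before ubiquinone, gave 1641 and 1866 against 2619 and 1884. In both genes the carnitine pools lay below both control pools, but control pool 2 was close to carnitine pool 2 and control pool 1 stood apart. Their log2 fold changes were -0.35 (adjusted p = 0.705 from limma) and -0.34 (adjusted p = 0.707), and without control pool 1 they were -0.099 and -0.11. The signals of NDUFS1, NDUFS3 and NDUFV2, further core subunits with or beside iron-sulfur clusters, overlapped between the diets, with log2 fold changes of -0.074, 0.021 and -0.092. The sign of each turned in 2 of the fits without 1 pool, with ranges from -0.26 to 0.11, from -0.052 to 0.094 and from -0.22 to 0.031. A dimmer probe set of NDUFV2 gave 335 and 383 against 406 and 452, lower in both carnitine pools. Its dimmest probe set gave 62.0 and 52.7 against 40.6 and 49.5, higher in both.

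The largest differences of complex I were in accessory subunits, which were 27 of its 32 genes. The arms of the complex were not compared. NDUFA11 had signals of 1496 and 1715 with carnitine against 2715 and 2242 in the controls. NDUFC2 gave 3763 and 3903 against 6289 and 4763. NDUFB11 gave 1888 and 2159 against 3214 and 2499.7. For all 3 genes both carnitine pools were below both control pools, and control pool 1 was the highest pool. The log2 fold change of NDUFA11 was -0.62 (SE 0.20, unadjusted p = 0.0163, adjusted p = 0.461 from limma). NDUFC2 had one of -0.51 (SE 0.20, adjusted p = 0.550) and NDUFB11 one of -0.49 (SE 0.21, adjusted p = 0.577). Without control pool 1 the values were -0.48, -0.31 and -0.31, and without control pool 2 they were -0.76, -0.71 and -0.67.

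NDUFB3, also an accessory subunit, went the other way. Its signals were 2909 and 3339 with carnitine against 1885 and 2317 in the controls, with a log2 fold change of 0.58 (SE 0.20, unadjusted p = 0.0228, adjusted p = 0.488 from limma). Both carnitine pools were above both control pools, and control pool 1 was the lowest. A dimmer probe set of NDUFB3 gave 843 and 1068 against 626 and 969, which overlapped between the diets (0.29 on the log2 scale with an SE of 0.27). The log2 fold change of NDUFB3 became 0.43 when control pool 1 was left out and 0.73 when pool 2 was.

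Further accessory subunits with carnitine pools below both control pools were NDUFA2, NDUFC1, NDUFA13, NDUFA1 and NDUFA12. Their log2 fold changes ran from -0.47 in NDUFA2 to -0.25 in NDUFA1. A dimmer probe set of NDUFA1 gave 2247 and 2447 against 3913 and 2215 (log2 fold change -0.33), which overlapped between the diets. NDUFB9 and NDUFB2 were the other genes of complex I with carnitine pools above both control pools, at 0.38 and 0.17. Without control pool 1, NDUFA2 was at -0.22, NDUFA13 at -0.15 and NDUFB9 at 0.15, and without carnitine pool 2 NDUFA12 was at -0.14. NDUFA8 had signals of 1915 and 2169 with carnitine against 1004 and 2132 in the controls. Its carnitine pools were nearly level with control pool 2 and far above control pool 1, and its log2 fold change of 0.48 became -0.065 when control pool 1 was left out and 1.02 when pool 2 was. Pools of the diets overlapped in NDUFA8 and in the other genes of complex I, 19 in all. NDUFA10 gave 1342 and 1302 against 1318 and 1354, a log2 fold change of -0.016 with a 95% interval from -0.45 to 0.42. NDUFS5 gave 6073 and 6288 against 6197 and 6625 (log2 fold change -0.052, and 0.012 after quantile normalization). NDUFV3, an accessory subunit beside the flavin site, had the dimmest signals of complex I, 151 and 191 against 108 and 164, with an SE of 0.37.

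**Figure D2:**
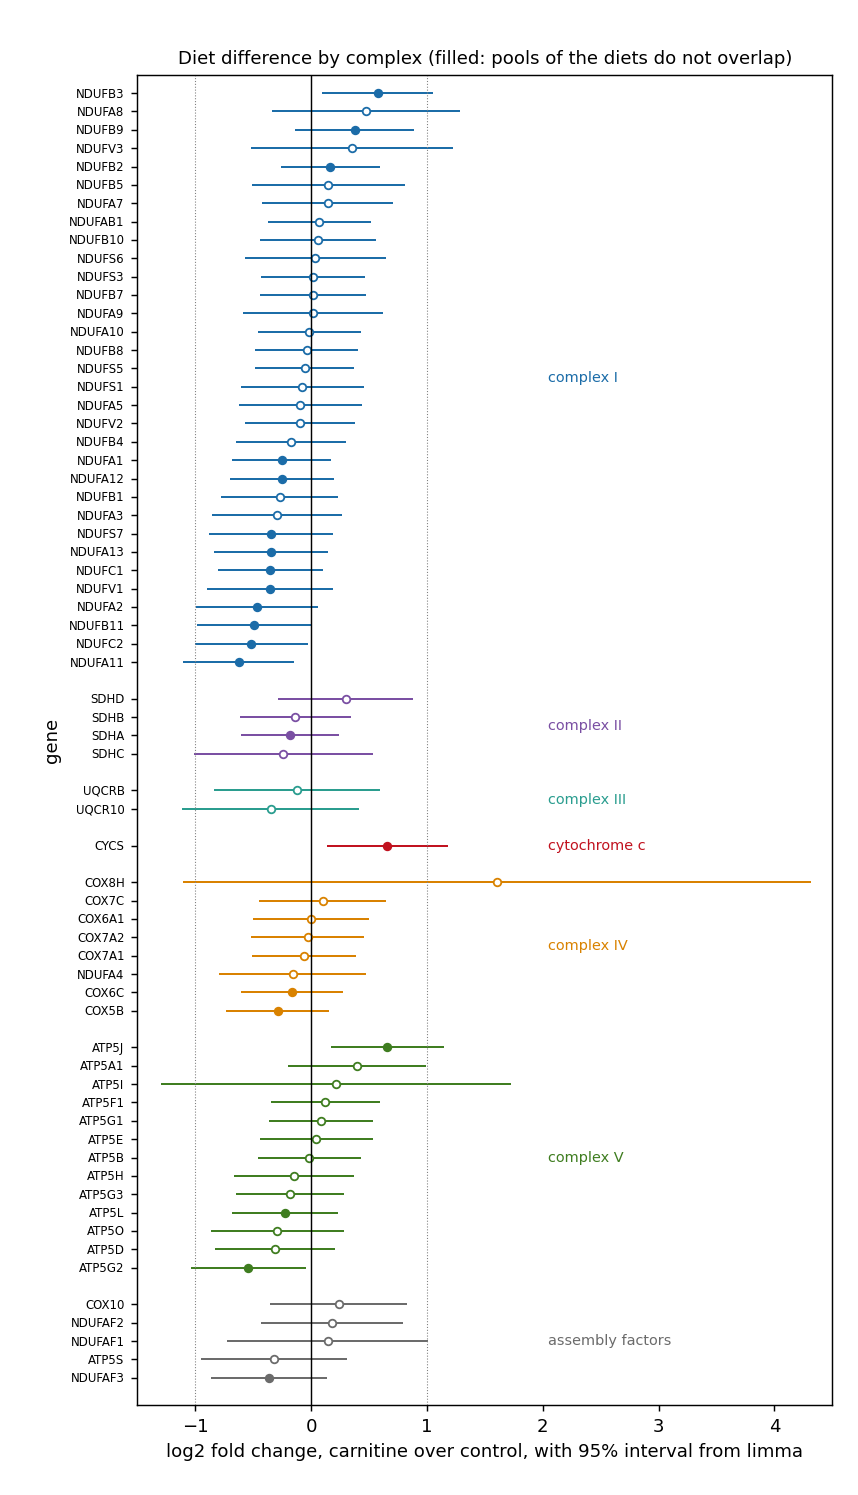
Log2 fold change of the 65 genes, carnitine over control, as points with 95% intervals from limma, grouped by complex and coloured as in the labels on the right, filled where the pools of the diets did not overlap, with dotted lines at a 2-fold difference in either direction. The points of complex I run from -0.62 to 0.58, and COX8H has the widest interval.

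Complex II, the succinate dehydrogenase, links the citric acid cycle to the respiratory chain and was measured with all 4 of its genes. SDHA, the flavoprotein that oxidizes succinate, had signals of 6509 and 6573 with carnitine against 7493 and 7334 in the controls. The pools of each diet were close to each other, and both carnitine pools were lower. The log2 fold change of -0.18 had an SE of 0.18 and a 95% interval from -0.60 to 0.23 (adjusted p = 0.816 from limma). SDHB, the iron-sulfur subunit, gave 4896 and 6161 against 6349.9 and 5723 (log2 fold change -0.13, and 0.031 without carnitine pool 1). The membrane anchors SDHC and SDHD lay on opposite sides of 0. SDHC gave 972 and 498 against 796 and 848, so that its carnitine pools enclosed both control pools, and its log2 fold change of -0.24 became -0.72 when carnitine pool 1 was left out and 0.24 when pool 2 was. SDHD gave 6122 and 5123 against 3707 and 5601, with a log2 fold change of 0.30 that was 0.60 without control pool 2 and level without control pool 1. The median of complex II was -0.16.

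Complex III was measured only through 2 small subunits, UQCR10 and UQCRB, while its catalytic subunits CYC1 and UQCRFS1 and its core proteins were not analysed here. UQCR10 gave 5199 and 5704 with carnitine against 4889 and 9829.7 in the controls. UQCRB gave 1999 and 2396 against 3237.5 and 1747. In both genes the control pools enclosed the carnitine pools and differed from each other by 1.01 and 0.89 on the log2 scale, with pool 2 higher in UQCR10 and pool 1 higher in UQCRB. UQCR10 had a log2 fold change of -0.35 (SE 0.32), and it became -0.85 when control pool 1 was left out and 0.16 when pool 2 was. UQCRB had one of -0.12 (SE 0.30), which was 0.011 without carnitine pool 1, 0.33 without control pool 1 and -0.57 without control pool 2.

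Cytochrome c, the small protein that carries electrons from complex III to complex IV and that triggers apoptosis when it leaves the mitochondrion, is coded by CYCS. Its signals were 1597 and 2078 with carnitine against 1262 and 1055 in the controls. Both carnitine pools were above both control pools, and the gap between the 2 carnitine pools was wider than that between the control pools. The mean signal was 1837 ± 340 (SD, n = 2 pools) against 1158 ± 146 (SD, n = 2 pools), and the log2 fold change was 0.66, a 1.58-fold difference (SE 0.22, 95% interval from 0.14 to 1.18, unadjusted p = 0.0193, adjusted p = 0.470 from limma). The difference became 0.85 when carnitine pool 1 was left out and 0.47 when pool 2 was.

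Complex IV, the cytochrome c oxidase, was represented by 8 nuclear genes, 5 of them below and 3 above 0, with a median log2 fold change of -0.045. Genes of the catalytic subunits are carried by mitochondrial DNA and were not analysed here. COX5B, which holds a zinc ion, had signals of 8085 and 8249 with carnitine against 10656 and 9309.6 in the controls. COX6C gave 11939 and 11629 against 12688 and 13718. These were the genes of complex IV whose carnitine pools lay below both control pools, with log2 fold changes of -0.29 (adjusted p = 0.707 from limma) and -0.16 (adjusted p = 0.842). COX7C gave 16269 and 16339 against 12738 and 18156, and COX6A1, the liver type of its subunit, 7029.6 and 8227 against 6727 and 8584. The log2 fold change of COX7C was 0.10 and that of COX6A1 was 0.0011, and both were below 0 without control pool 1, at -0.16 and -0.17. NDUFA4, first assigned to complex I and now to complex IV, gave 6844 and 8998 against 10959 and 7002 and had a log2 fold change of -0.16, turning to 0.16 if control pool 1 was left out and to 0.039 if carnitine pool 1 was.

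Subunit 7A of complex IV occurs in a form typical of heart and muscle, COX7A1, and one found in most tissues, COX7A2. In these livers both were above the 75th percentile of signal. COX7A1 gave 2900.3 and 3316 with carnitine against 3404.5 and 3072 in the controls, and COX7A2 gave 3724 and 4932 against 4361 and 4382. The pools of the diets overlapped for both, with log2 fold changes of -0.061 (95% interval from -0.50 to 0.38) and -0.029, the latter 0.010 after centring on the median and 0.17 without carnitine pool 1. The sign of COX7A1 turned without carnitine pool 1 or control pool 1, at 0.036 and 0.014. COX8H, a heart form of subunit 8, gave 14.2 and 184 against 14.5 and 19.5 and was the single gene of the 65 below the median signal of 111. Only carnitine pool 2 stood above the other pools, and the log2 fold change of 1.61 (SE 1.15, adjusted p = 0.733 from limma) became 3.46 when carnitine pool 1 was left out and -0.24 when pool 2 was. The 4 measured markers of skeletal muscle were below the median signal, with summed signals of 40.3 and 70.3 with carnitine against 87.7 and 77.9 in the controls.

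Complex V, the ATP synthase, was measured with 13 genes, 7 below and 6 above 0, with a median log2 fold change of -0.016. ATP5J, coupling factor 6 of the peripheral stalk that holds the catalytic head in place, had the smallest unadjusted p of all 65 genes. Its signals were 1303 and 1447 with carnitine against 946 and 799 in the controls. Both carnitine pools were above both control pools, and the 2 pools of each diet were close together. Its log2 fold change was 0.66 (SE 0.20, 95% interval from 0.18 to 1.14, unadjusted p = 0.0138, adjusted p = 0.452 from limma), a mean signal of 1375 ± 102 (SD, n = 2 pools) against 872 ± 104 (SD, n = 2 pools). It was between 0.54 and 0.78 when a pool was left out. The other genes of the peripheral stalk, ATP5F1, ATP5H and ATP5O, had pools that overlapped between the diets, with log2 fold changes of 0.12, -0.15 and -0.29. Without control pool 1 these were -0.042, 0.017 and -0.0048, and without carnitine pool 1 that of ATP5H was 0.037 and that of ATP5O -0.17.

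The catalytic head of the ATP synthase is built from the products of ATP5A1 and ATP5B. ATP5A1 gave 8495.5 and 9934 with carnitine against 5600.3 and 8647 in the controls, and ATP5B gave 9776 and 10961 against 10464 and 10471. Control pool 1 was the low pool of ATP5A1, and all pools of ATP5B were near each other. For ATP5A1 the log2 fold change was 0.40 (SE 0.25), and 0.087 without control pool 1, while that of ATP5B was -0.016 with a 95% interval from -0.45 to 0.42. In the central stalk, which turns within the head, ATP5D had a log2 fold change of -0.31 and ATP5E one of 0.045. ATP5D was at -0.14 without control pool 1, -0.15 without carnitine pool 2 and -0.48 without carnitine pool 1, and ATP5E at -0.11 without control pool 1. The pools of the diets overlapped for both, with 20408 and 20106 against 17696 and 21798 for ATP5E and 3089.7 and 2458 against 3856 and 3029 for ATP5D.

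The rotating ring of c subunits is coded by ATP5G1, ATP5G2 and ATP5G3, whose mature proteins are identical and whose import sequences differ. ATP5G2 had signals of 1415 and 1784 with carnitine against 2499.5 and 2136 in the controls. ATP5G3 gave 5917 and 6803 against 7829.7 and 6630.1, and ATP5G1 gave 3866 and 4328 against 4158 and 3573. Of these genes ATP5G2 was the one without overlap between the diets, with a log2 fold change of -0.54 (SE 0.21, unadjusted p = 0.0350, adjusted p = 0.533 from limma). It became -0.37 when carnitine pool 1 was left out and -0.71 when pool 2 was. ATP5G3 and ATP5G1 had log2 fold changes of -0.18 and 0.086, -0.064 for ATP5G3 without control pool 1 and -0.024 for ATP5G1 without control pool 2, and the difference between ATP5G2 and the others was not tested. Among the small membrane subunits, ATP5L gave 4729.8 and 5767 against 6006 and 6219, with both carnitine pools lower. Its log2 fold change was -0.23, and -0.084 without carnitine pool 1. A dimmer probe set of ATP5L was also lower in both carnitine pools (-0.27). Its dimmest was higher in both, with 61.4 and 65.8 against 33.6 and 51.8 (0.61). ATP5I gave 1014 and 2022 against 2555 and 595. The pools of ATP5I differed more within than between the diets, with an SE of 0.64, and its log2 fold change of 0.22 became 1.27 when control pool 1 was left out and -0.84 when pool 2 was.

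**Figure D3:**
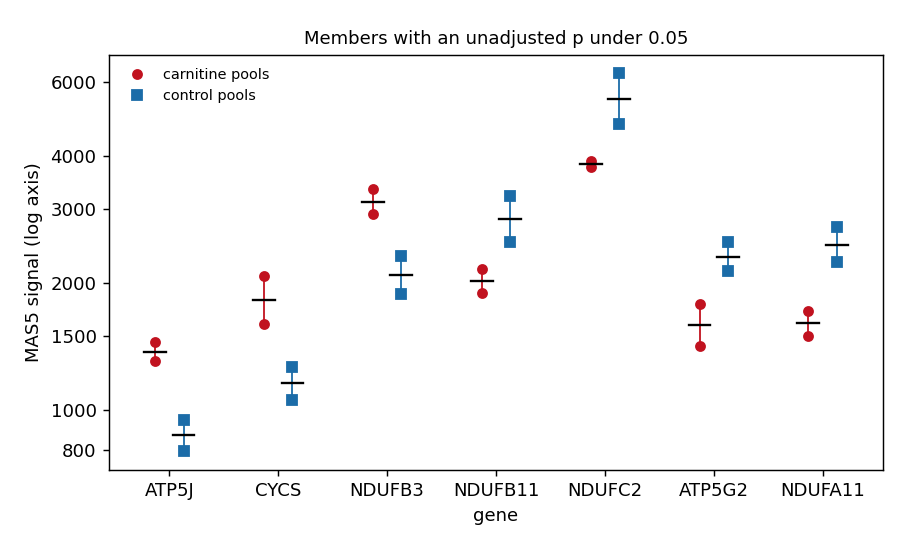
MAS5 signal, on a log axis, of the 7 genes with an unadjusted p under 0.05, with red circles for carnitine pools and blue squares for control pools, pools of the same diet linked by a line and their geometric mean drawn as a black tick. The red and blue points of each gene do not overlap, and the gap between the 2 control pools of NDUFC2, 6289 and 4763, is wider than that between its carnitine pools.

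Assembly factors, which build the complexes and are no part of the finished enzymes, gave 3 values above and 2 below 0. NDUFAF3, a factor of complex I, had signals of 534 and 535 with carnitine against 702 and 672 in the controls. Its carnitine pools were level and below both control pools, with a log2 fold change of -0.36 (SE 0.21, adjusted p = 0.685 from limma). The pools overlapped for NDUFAF1 and NDUFAF2, further factors of complex I, for COX10, an enzyme of heme a synthesis, and for ATP5S, a protein related to the ATP synthase. Their log2 fold changes were 0.15, 0.18, 0.24 and -0.32. The sign turned for NDUFAF1 without carnitine pool 2 or control pool 2 (-0.095 and -0.10) and for NDUFAF2 without carnitine pool 1 (-0.036). It also turned for ATP5S without control pool 1 (0.016), while COX10 was at 0.025 without control pool 1. A slightly dimmer probe set of ATP5S gave 675 and 829 with carnitine against 853 and 647 in the controls, a log2 fold change of 0.0094.

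The 7 genes with an unadjusted p under 0.05 kept the direction of their difference in all 4 fits that left out a pool, and none of the 7 stayed under that threshold in all of them. Without carnitine pool 1, CYCS and COX8H were higher at that threshold (3.08% of the members, against 2.62% of all probe sets and 4.71% of those above the 75th percentile of signal), and 0 genes were lower (against 3.26% and 4.45%). Without carnitine pool 2, 0 were higher (against 1.49% and 2.44%), while NDUFA11 and ATP5G2 were lower (3.08%, against 2.61% and 1.62%). Without control pool 1, CYCS, ATP5J and ATP5I were higher (4.62%, against 6.94% and 10.7%) and UQCR10 lower (1.54%, against 5.39% and 8.87%). Without control pool 2, 6 genes were higher (9.23%, against 7.6% and 12.2%) and 12 lower (18.5%, against 4.97% and 9.59%), 8 of the latter in complex I. Such a fit keeps 1 pool of a diet and assumes that it varies like the others. In all, 30 of the 65 genes kept the sign of their difference in each of these fits. For genes without overlap between the diets this was fixed in advance, since leaving out 1 pool cannot turn their sign. These were the 16 lower and 5 higher genes, which include the 7 genes above, so that their kept direction is no sign of stability.

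Within a diet, the pools lay further apart in the control group, in these genes and in the brighter probe sets alike. The median difference between the 2 control pools was 0.30 on the log2 scale, against 0.20 between the 2 carnitine pools, and the control pools lay further apart in 44 of the 65 genes (67.7%). In probe sets above the 75th percentile of signal these medians were 0.28 and 0.19, and the control pools lay further apart in 61.7%. Control pool 1 was the highest pool in 29 genes (44.6%) and the lowest in 16 (24.6%), against 31.2% and 27.4% of those probe sets. Carnitine pool 1 was the lowest pool in 25 genes, 38.5% of the members, beside 959 of the 5984 probe sets above the 75th percentile of signal, and it lay below carnitine pool 2 in 49 of the 65 (75.4%, beside 48.0%). These shares are a description of 4 arrays on which the genes are measured together.

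**Figure D4:**
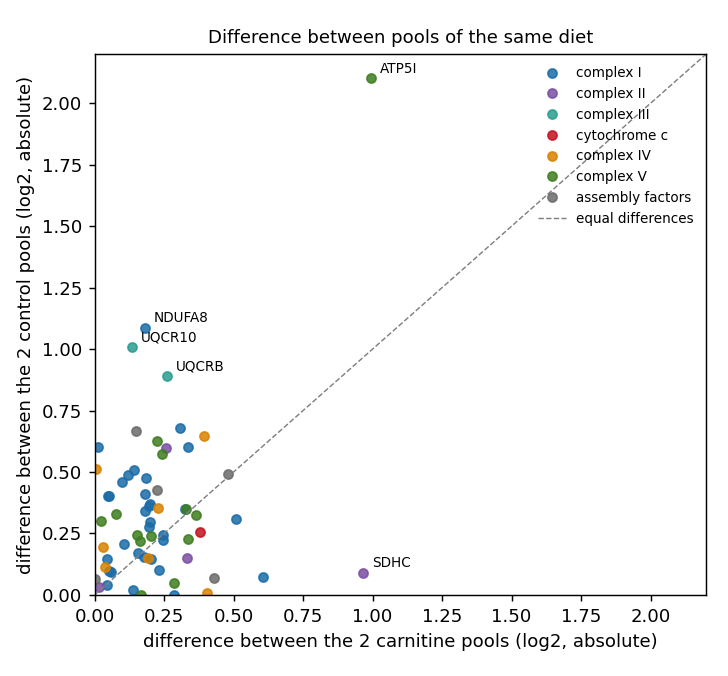
Absolute log2 difference between the 2 control pools against that between the 2 carnitine pools for 64 of the genes, coloured by complex, with a dashed line where both are equal; COX8H, whose carnitine pools differ most, is left out. Points above the line are more frequent, and ATP5I, NDUFA8, UQCR10 and UQCRB have the widest gaps between control pools.

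Probe sets of the same gene did not always give the same picture. Of the 65 genes, 15 had more than 1 probe set, with 18 further probe sets in all. The 6 further probe sets above the median signal had log2 fold changes from -0.33 to 0.29, and 4 of them had the sign of the brighter one. The 12 below the median ranged from -0.92 to 2.13, and 10 of the 12 lay above 0. The dim probe set of SDHA gave 57.4 and 105 with carnitine against 7.09 and 44.4 in the controls, a log2 fold change of 2.13 (SE 0.92), while the bright one gave -0.18. The 2 dim probe sets of NDUFS3 had log2 fold changes of 1.55 and -0.92, on either side of the 0.021 of the bright one. ATP5J had a dim probe set at 17.2 and 9.93 against 9.43 and 1.87 (1.64 on the log2 scale with an SE of 1.09), of the same sign as the bright one.

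**Figure D5:**
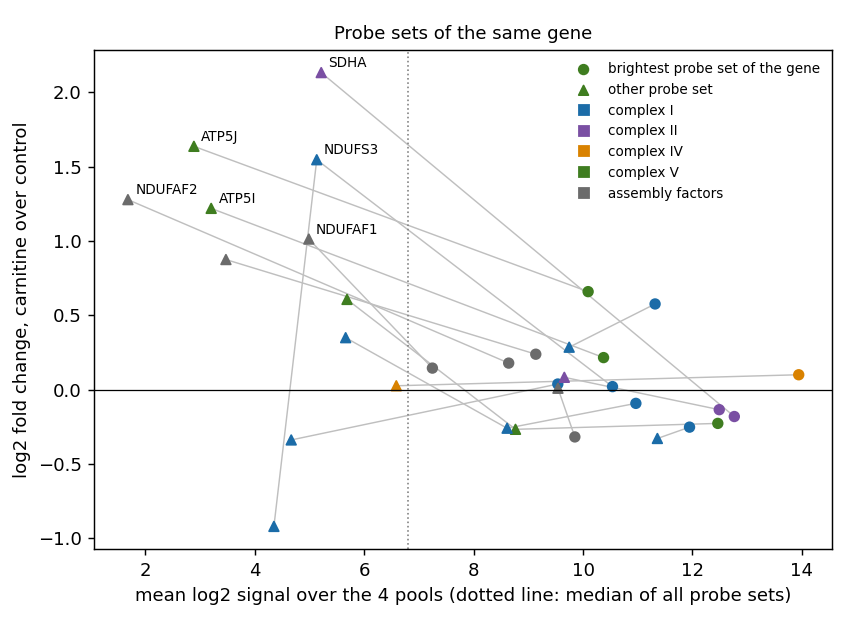
Log2 fold change, carnitine over control, against mean log2 signal for the probe sets of the 15 genes that have more than 1, with circles for the brightest probe set of a gene, triangles for the others, grey lines joining probe sets of a gene, colours for the complex and a dotted line at the median signal of all probe sets. The triangles left of the dotted line spread from -0.92 to 2.13, while the circles lie between -0.32 and 0.66.

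Other genes of oxidative phosphorylation were taken from a list of 86, of which 36 had a probe set with 1 symbol. The rest of that list, among them all subunits coded by mitochondrial DNA, were not analysed here. No gene of the 36 passed the adjusted p in limma, and at an unadjusted p under 0.05, 3 were higher (8.33%) and 2 lower (5.56%), against 4.73% and 3.94% of all probe sets and 8.14% and 6.18% of those above the 75th percentile of signal. The 36 values split into 19 above and 17 below 0, and their median was 0.030. Of 14 assembly factors under other names, BCS1L, which inserts the Rieske protein into complex III, gave 562 and 663 with carnitine against 332 and 377 in the controls (0.79 on the log2 scale with an SE of 0.24, adjusted p = 0.445). HIGD1A, a small protein of the inner membrane that is induced by hypoxia, gave 3327 and 5682 against 2553 and 2251 (log2 fold change 0.86, adjusted p = 0.459). OXA1L, which inserts proteins into the inner membrane and was chosen after its values were seen, gave 1891 and 1571 against 2345 and 2683 (log2 fold change -0.54, adjusted p = 0.513). In BCS1L and HIGD1A both carnitine pools were above both control pools, and in OXA1L both were below.

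Carriers that bring ADP and phosphate to the ATP synthase lay on both sides of 0. Among the adenine nucleotide carriers, SLC25A6 gave 4615 and 3664 with carnitine against 6077 and 5642 in the controls, SLC25A5 gave 912 and 1208 against 872 and 698, and SLC25A4 gave 9189.8 and 9084 against 7250.4 and 9791. SLC25A6 was the lower and SLC25A5 the higher in both carnitine pools, while SLC25A4 overlapped. The log2 fold changes were -0.51 (unadjusted p = 0.0356, adjusted p = 0.535 from limma), 0.43 and 0.12. The phosphate carrier SLC25A3 had one of -0.34 with both carnitine pools lower. COQ6, an enzyme of ubiquinone synthesis, gave 2430.0 and 6933 against 2426 and 1531 (1.09 on the log2 scale with an SE of 0.47), with carnitine pool 1 level with control pool 1. ETFB, a subunit of the flavoprotein that brings electrons from fatty acid oxidation, gave 2180.1 and 2170.3 against 3135 and 2588 (log2 fold change -0.39). The uncoupling protein UCP2 had a log2 fold change of -0.29 with pools that overlapped, and its relative SLC25A14 one of 0.96 (SE 0.39, adjusted p = 0.553), with both carnitine pools higher at 131 and 183 against 73.1 and 86.8. USMG5, a membrane subunit of the ATP synthase under another name, had one of 0.26 with pools that overlapped.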

How the data were processed

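Liver RNA of control and carnitine piglets was measured on 4 arrays, 2 pools per diet. The authors deposited MAS5 signal intensities per probe set, background-subtracted and with the same trimmed mean on every array. Programs in the submitters' processing notes are Affymetrix Expression Console 1.1, GCOS 1.1.2 and MAS5 5.0. Of 24123 probe sets, 188 controls were left out (124 AFFX and 64 reporter sets) and 23935 tested. The log2 of each signal, without pseudocount or filter, was fitted with limma 3.58.1 in R 4.3.3 (variance trend, 2 residual degrees of freedom), with Benjamini-Hochberg adjustment over all probe sets. The fit was tested on simulated data. Fold changes are carnitine over control, and SE is the standard error from limma. An exact permutation of 2 against 2 pools cannot give a two-sided p below 0.333. The labels call the pools of a diet biological replicates. The p-values measure only the spread between such pools, which limma shares in part over all probe sets. Precision is limited by the number of arrays.

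Symbols are those of the array's annotation (10069 probe sets with 1, 198 with several, 13668 with none). It names no genome build, so that no coordinates are given. The members and gene lists were chosen with earlier results of these data known. Genes were named by a rule: in each class the highest and lowest mean signal and up to 4 of the smallest p-values, all genes of complex II, cytochrome c, paralog sets, any 2-fold difference, and of the related genes up to 2 of the smallest p-values per group, the adenine nucleotide carriers and UCP2. NDUFA1, NDUFA2, NDUFA3, NDUFA8, NDUFA10, NDUFA12, NDUFA13, NDUFB2, NDUFB9, NDUFC1, NDUFS1, NDUFS3, NDUFS7, NDUFV1, NDUFV2, ATP5B, ATP5F1, ATP5H, ATP5I, ATP5L, ATP5O and OXA1L were named outside it after their values were seen. Alternatives were other scalings, a floor, an offset, a filter, other variance models, other probe set choices, the methods' one-factor test, the replicate number as a block and leaving out each pool.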

Additional observations from a re-analysis of the deposited data

How the results depend on the processing

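No gene of the respiratory chain, the ATP synthase or the related list passed the adjusted p under any of the 16 alternatives run. Of the 33 genes named by the rule, 16 kept their sign in all of them. The filter, the replicate block, the fit with no variance trend and the one-factor test leave the log2 fold change unchanged, so they cannot turn a sign. Leaving out a pool cannot turn it either for genes without overlap between the diets. The count of kept signs is therefore no measure of stability. At an unadjusted p under 0.05 (3 members higher and 4 lower), 1 was higher with the mean over probe sets, 1 with the second probe set and 1 in the methods' one-factor test, in which 2 were lower. With no variance trend 0 were higher and 0 lower, and after centring on the median 2 were lower. Without 1 pool, 0 to 6 were higher and 0 to 12 lower. Of the related genes (3 higher, 2 lower), 1 was higher in the one-factor test, 1 was lower after centring on the median and 0 with no variance trend, and without 1 pool 1 to 5 were higher and 0 to 3 lower. The median log2 fold change of all members ranged from -0.15 to 0.014 without 1 pool, that of complex I from -0.11 to -0.043, of complex II from -0.20 to 0.028, of complex IV from -0.19 to 0.071, of complex V from -0.20 to 0.037 and of the assembly factors from -0.10 to 0.025. It was -0.024 for complex I after centring on the median, and -0.35 for complex III without probe sets that share probes with other transcripts, which leaves UQCR10 alone. With the mean over probe sets the medians of complex II and the assembly factors were 0.14 and 0.56, and with the second probe set 0.19 and 0.88, where dim probe sets enter by construction. The cause of the other shifts was not tested. With the replicate number as a block 3 members were higher and 3 lower, and no call at the adjusted p changed. Deviations of same-numbered pools from their diet means correlated at r = 0.0028 across probe sets above the median signal, which are not independent replicates. The labels give these pools the same number and no more. Whether they were handled together cannot be told from this value. Detection calls were not used here, so that signal over background is unknown, and the probe sets with low signals had the widest errors.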
